A study of Mus musculus with 12 samples.

Results

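The islets described here came from the 6 control mice of a 12-array study of sorcin overexpression, and each array held the RNA of 1 mouse. Sorcin, the product of Sri, binds calcium in muscle and endocrine cells. The controls were male C57BL/6 littermates of SRI-tg10 mice, and they were 8 weeks old. They ate a diet with 60% fat from 4 weeks of age and drank water with doxycycline at 500 mg/L over the same 4 weeks, as did the SRI-tg10 mice. The group name SRI-tg10 is read here as 10 copies of the transgene. SRI-tg10 mice carried a doxycycline-inducible sorcin and luciferase transgene, whose transactivator was driven by the rat insulin promoter. Which of these 2 parts, if any, the controls carried is not stated, so the controls are a fat-fed and doxycycline-exposed baseline and not an untreated one. Islets were freed from the pancreas with collagenase and cleared of exocrine tissue on a Histopaque gradient, and the RNA was not treated with DNase, per the labels' protocols. The source name of each sample calls the material beta cells, whereas the tissue field calls it primary islets. The 6 SRI-tg10 arrays entered the normalization and are not compared here.

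A pancreatic islet is a cluster of endocrine cells inside the exocrine pancreas. Beta cells secrete insulin when blood glucose rises, alpha cells secrete glucagon, delta cells secrete somatostatin and PP cells secrete pancreatic polypeptide. Capillary endothelium, stellate cells, resident macrophages and blood share the islet, and acinar and duct cells adhere to it after isolation. A level in such a preparation sums over all of these cells, so more cells of a type and more RNA per cell cannot be told apart.

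Illumina bead arrays with 45281 probes were used, and a probe was kept when its detection p-value, which sets it against negative control beads, was under 0.05 on all 6 control arrays. That left 14229 probes (31.4%) of 9967 gene names, 1323 of which are clone names or accessions. A further 21218 probes were detected on none of the 6. Levels are on the log2 scale after background correction and quantile normalization, in which a step of 1 is a 2-fold change in signal, and they ran up to 15.17. A gene is represented by its brightest kept probe, and its rank among the 9967 depends on how well that probe hybridises as well as on the amount of RNA. Errors are standard deviations (SD) over the 6 mice. No mouse was measured more than once, so the spread holds differences between mice and between arrays together, and these cannot be told apart.

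Before any result, the sample labels were set against the files. The arrays of the intensity table carry the sample titles as column names. Sri varied little over the 6 control arrays, with a lowest, median and highest level of 9.73, 9.95 and 10.15. That does not test the labels, since the SRI-tg10 arrays are not compared. The authors' deposited value table, in contrast, went against its labels. Only 2 of its 12 columns were closest to the array they are labelled as, and 3 of its 6 control columns were closest to an SRI-tg10 array, with correlations to the closest array between 0.831 and 0.976. In column order, the closest arrays were control replicates 1 to 6 and then SRI-tg10 replicates 1 to 6. The value table was used for no other purpose. In the intensity table, 16271 to 20094 probes were detected per control array and pairs of arrays correlated between 0.932 and 0.983. Control replicate 5 stood apart from the other mice. It had the fewest detected probes, and its mean correlation with the other controls was 0.940, against 0.963 to 0.969 for the other 5. Its median intensity was also the lowest, at 126.6, against 138.4 to 166.6 for the other arrays. Detection failed on it alone for 1482 probes, against 34 to 284 for each other array. A probe missed in replicate 5 therefore does not show that the gene is absent. Counts of genes with a 2-fold range are given with and without replicate 5 for most of the lists described. The SDs of single genes, list scores, level bands, promoter counts and second-probe values all include it.

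The median SD was 0.283 (quartiles 0.198 and 0.393), and the median probe differed 1.69-fold between its highest and its lowest mouse. A range of at least 2-fold was found for 4125 probes, 29.0% of those kept, and for 2930 genes, 29.4% of all. Without replicate 5 that range was reached by 1383 genes, 13.9%. From band 2 of 10 bands of rising level, the spread shrank as the level rose. The median SD was 0.351 in band 2, where 43.6% of probes had a 2-fold range, and 0.182 in band 10, where 11.9% did. Band 1, the lowest in level, had a median SD of 0.330, and 35.1% of its probes had a 2-fold range. Replicate 5 was the highest mouse for 31.4% and the lowest for 36.4% of the probes with a 2-fold range. One array lay clearly apart from the other 5, by Dixon's criterion for 6 samples, for 10.3% of probes. For 7.49% of probes that array was replicate 5, and for each other mouse the share was between 0.218% and 0.857%. The first principal component, with 42.7% of the variance, separated replicate 5 from the rest.

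**Figure D1:**
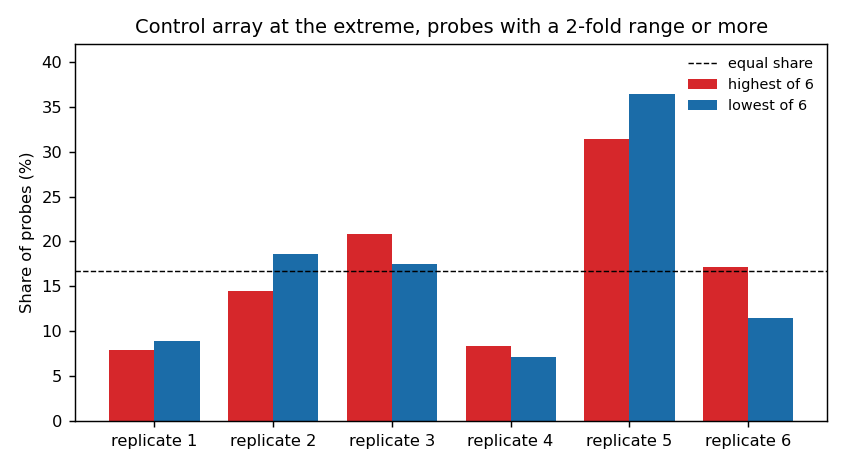
Share of the 4125 probes with at least a 2-fold range (y axis, %) for which each control array (x axis) gave the highest (red) or the lowest (blue) of the 6 levels, with a dashed line where equal shares would lie. Replicate 5 was the highest for 31.4% and the lowest for 36.4%, and replicates 1 and 4 were the least often extreme.

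**Figure D2:**
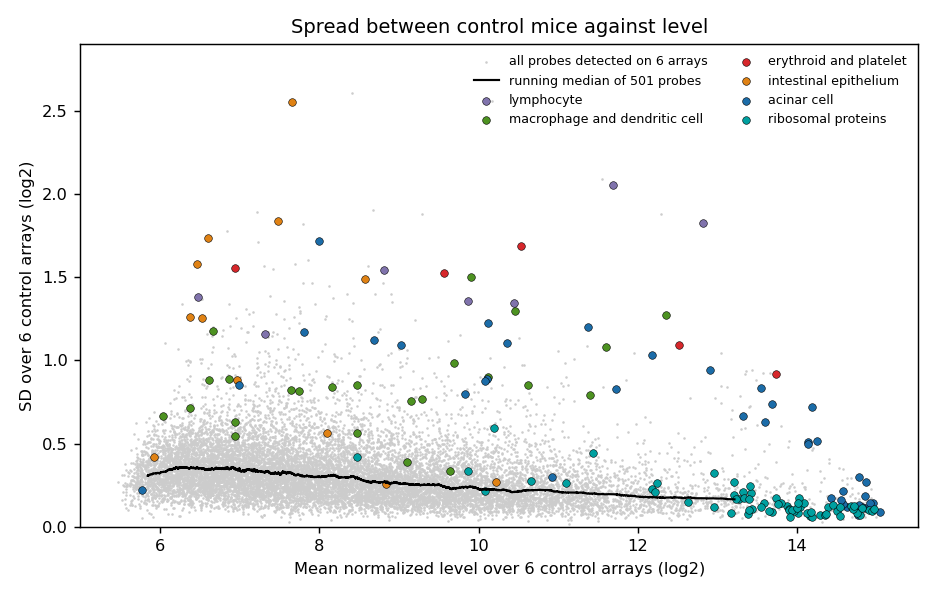
SD over the 6 control arrays (y axis, log2) against the mean normalized level (x axis, log2) for all 14229 kept probes (grey), with the running median of the SD (black line) and the genes of 6 lists in colour. Lymphocyte, erythroid and most intestinal genes lie far above the line (Vil1, Anpep and Mep1b lie nearer to it), and ribosomal protein genes lie mostly on or below it under this quantile normalization.

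Genes of immune cells, gut and blood were among those with the widest spread between mice. They included immunoglobulin and T cell receptor genes (Igl-V1, SD 2.56, Igh-6, SD 2.05, Tcrb-V13, SD 1.90, and Igk-C, SD 1.83). A lipoprotein gene of the small intestine (Apoa4, SD 2.55), a gut chemokine (Ccl25, SD 1.84) and beta-globin (Hbb-bs, SD 1.69) were others. Between these lay Plac8 (SD 1.88), Fbp2 (SD 1.78), Cyp3a13 (SD 1.73), Reg3a (SD 1.72) and Ccl5 (SD 1.71). Lymphocyte and plasma cell genes such as Mzb1, Cd79b and Sash3 were also wide. Apoa4, Ccl25, Hbb-bs, Plac8, Fbp2, Cyp3a13 and Reg3a were highest in replicate 5. The steadiest genes between the 50th and 95th percentile of level were Becn1, which starts autophagosome formation (SD 0.02), Pgm2, a sugar phosphate mutase (SD 0.03), Elovl1, a fatty acid elongase (SD 0.03), and Lias, the mitochondrial lipoyl synthase (SD 0.04). Apoa4 had a lowest, median and highest level of 5.31, 7.25 and 12.54, with only replicate 5 above 7.58. Becn1 lay between 11.12 and 11.15 in all 6 mice.

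The promoters of the 100 widest genes held fewer CG dinucleotides than those of the quartiles of spread, which were nearly alike in that count. The spread used here includes replicate 5, and the split was not repeated without it. The 250 bases before the start of 3 wide genes and 2 steady ones are shown, from RefSeq on GRCm38.p6, because they span the range of CG dinucleotides, which are in capitals. They are Apoa4 at chr9:46240594-46240843 on the plus strand, Hbb-bs at chr7:103827929-103828178 on the minus strand, Lyz1 at chr10:117292869-117293118 on the minus strand, Pgm2 at chr5:64092689-64092938 and Lias at chr5:65391247-65391496, both on the plus strand.
Apoa4: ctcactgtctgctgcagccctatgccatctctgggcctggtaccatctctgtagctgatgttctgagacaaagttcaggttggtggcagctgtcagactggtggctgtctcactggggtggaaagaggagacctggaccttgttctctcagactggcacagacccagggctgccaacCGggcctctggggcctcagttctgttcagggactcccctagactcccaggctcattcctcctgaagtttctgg
Hbb-bs: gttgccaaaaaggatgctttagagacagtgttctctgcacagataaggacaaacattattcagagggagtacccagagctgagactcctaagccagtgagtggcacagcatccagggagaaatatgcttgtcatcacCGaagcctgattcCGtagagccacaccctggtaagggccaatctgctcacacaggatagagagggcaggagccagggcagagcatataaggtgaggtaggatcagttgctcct
Lyz1: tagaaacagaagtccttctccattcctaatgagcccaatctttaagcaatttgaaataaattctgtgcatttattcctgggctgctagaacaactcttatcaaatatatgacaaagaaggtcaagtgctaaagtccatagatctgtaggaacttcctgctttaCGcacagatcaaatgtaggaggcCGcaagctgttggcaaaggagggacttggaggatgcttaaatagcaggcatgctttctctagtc
Pgm2: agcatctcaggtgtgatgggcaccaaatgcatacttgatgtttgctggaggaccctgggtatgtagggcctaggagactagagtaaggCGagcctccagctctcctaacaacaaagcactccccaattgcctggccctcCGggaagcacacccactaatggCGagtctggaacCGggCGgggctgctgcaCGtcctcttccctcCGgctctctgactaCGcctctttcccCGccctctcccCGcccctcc
Lias: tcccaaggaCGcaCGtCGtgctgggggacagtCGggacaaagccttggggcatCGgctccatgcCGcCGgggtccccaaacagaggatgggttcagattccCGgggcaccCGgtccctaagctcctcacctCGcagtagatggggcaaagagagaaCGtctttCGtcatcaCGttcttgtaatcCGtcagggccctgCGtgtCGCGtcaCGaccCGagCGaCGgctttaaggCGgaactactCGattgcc
These windows hold 1, 2, 2, 10 and 23 CG dinucleotides in the order given. Of the 8644 genes with a gene name, 6978 matched a promoter in the table. They were split into quartiles by the SD relative to that of probes of like level, to allow for the dependence of the spread on level. The median number of CG dinucleotides was 17, 16, 16 and 15 from the steadiest to the widest quartile, 4 in the 100 widest genes, and 6 over all 27025 promoters of the table. The motif TATAAA, searched on the coding strand between 50 and 11 bases before the start, was present in 0.974%, 1.26%, 1.78% and 3.44% of the quartiles, in 12% of the 100 widest genes and in 2.89% of all promoters. None of the printed windows holds it there. A match is a description of the letters and not of a binding site.

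The top of the ranking joined endocrine, exocrine and ribosomal genes. The 20 brightest named genes comprised Reg1, a secreted protein of acinar cells, at rank 1, the 18S ribosomal RNA Rn18s at rank 2, the digestive enzyme genes Amy2, Cela3b, Cel, Cela2a, Ctrl and Cpb1 with Clps and Sycn, the ribosomal protein genes Rps29, Rpl41, Rpl38, Rplp1 and Rpl19, ubiquitin (Ubb), the mitochondrial mt-Nd4, and 3 hormones, Ins1, Gcg and Ins2. Probes of near-identical genes, such as the pairs Ins1 and Ins2 or Lyz1 and Lyz2 and the globin, elastase and immunoglobulin families, may share signal, so their values are not independent of one another.

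All 5 defining hormones were detected on all 6 arrays, and the label of islet tissue fits their levels. Ins1, 1 of the 2 mouse insulin genes, ranked 9 of 9967 with levels of 15.17, 15.12, 14.97, 15.03, 14.68 and 14.63 in replicates 1 to 6. Ins2, the other insulin gene, ranked 24 with a lowest, median and highest level of 14.63, 14.73 and 15.01. The mice did not follow the same order for both genes: Ins1 was lowest in replicates 5 and 6 and Ins2 was highest in them after quantile normalization. Gcg, which encodes glucagon, ranked 19 (14.67, 14.80 and 15.02), and Sst, which encodes somatostatin, ranked 42 (14.60, 14.68 and 14.77). Neither hormone spanned a 2-fold range. Ppy, which encodes pancreatic polypeptide, ranked 83 and varied more, with 13.61, 14.26 and 14.69. It was low in replicates 2, 4 and 5 and high in replicates 1, 3 and 6.

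In the deposited intensities, before any normalization, Ins1 ran from 23250 to 42241 with a median of 35362, Gcg from 23764 to 38619, Sst from 21811 to 31667 and Ppy from 9356 to 29170. Ins2 kept within 27179 and 29204. These intensities include each array's own brightness, so they are not comparable between mice as they stand.

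How steady a very bright gene looked depended on the normalization. Quantile normalization gives every array the same set of values, so the brightest genes can differ only by trading places at the top. When each array was instead scaled to a common 75th percentile, the SD was 0.40 in place of 0.23 for Ins1, 0.51 in place of 0.17 for Ins2, 0.50 in place of 0.14 for Gcg and 0.37 in place of 0.06 for Sst, and replicate 5 was the highest mouse for all 4. For Ppy the SD was 0.30 in place of 0.47. The order of the mice therefore differed between the scalings for all 5 hormones. The highest mouse for Ins1 was replicate 1 after quantile normalization and replicate 5 after 75th percentile scaling, so the opposite order of Ins1 and Ins2 in replicate 5 did not hold under the second scaling. Ins2 was highest in replicate 5 and lowest in replicate 1, and Ins1 lowest in replicate 6, under both.

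**Figure D3:**
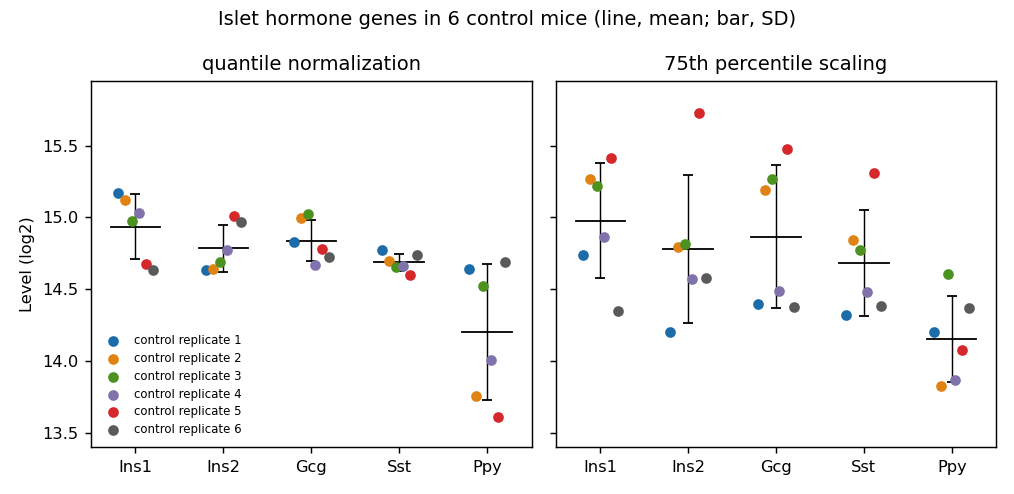
Levels of the 5 hormone genes (y axis, log2) in each control mouse (coloured points) after quantile normalization (left) and after scaling to a common 75th percentile (right), with the mean (line) and SD (bar). The spread of Ins1, Ins2, Gcg and Sst is wider on the right, where replicate 5 is the highest mouse for all 4, and that of Ppy is narrower.

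Pyy, a peptide of PP and delta cells, ranked 55, above Ppy, with 14.22, 14.58 and 14.69. Other islet peptides lay lower. Iapp, the amyloid peptide co-secreted with insulin, ranked 197 with 12.90, 13.31 and 13.49, and Ucn3, a beta cell peptide that stimulates delta cells, ranked 952 with 10.99, 11.39 and 11.56. The minor peptides varied more: Npy lay between 7.39 and 9.18, Cartpt between 7.08 and 8.65 and Ghrl between 6.76 and 8.36, highest in replicates 2, 5 and 6 in turn. Cck was detected in replicate 5 alone, at 7.59.

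Beta cell identity genes were high in level, and their share with a 2-fold range was near that of all genes. For their level they were wide. The relative SD, which divides the SD by the median SD of probes of like level, had a median of 1.36. It was 1.01 for all genes, with replicate 5 included in both. Of 34 listed genes, 28 were detected on all 6 arrays, at a median level of 11.19, and 10 of these spanned 2-fold, 35.7% beside 29.4% of all genes. Without replicate 5 it was 4 genes, 14.3% beside 13.9%. G6pc2, the islet glucose-6-phosphatase, ranked 60 (14.28, 14.46 and 14.70), and Isl1, an endocrine transcription factor, ranked 320 (12.49, 12.68 and 13.09). Slc30a8, the granule zinc transporter, followed at rank 370 (12.24, 12.62 and 12.71). None of these spanned 2-fold. Pdx1, the transcription factor that maintains beta cells, had 9.93, 10.26 and 10.76, and the glucose transporter gene Slc2a2 had 11.00, 11.14 and 11.69.

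Among the 28, 12 had their lowest and 6 their highest level in replicate 5, where 28.8% of all genes were lowest and 29.7% highest. The transcription factor gene Nkx6-1 was at 10.33 there and between 11.23 and 11.64 in the other mice. Mlxipl, which encodes the glucose-responsive factor ChREBP, was at 10.08 in replicate 5 beside a median of 11.99 and a highest level of 12.30. Abcc8, the sulfonylurea receptor subunit of the KATP channel, was at 10.14 beside 11.50 and 11.84, and Gipr, the receptor of the incretin GIP, was at 6.69 beside 8.46 and 8.79. Kcnj11, the pore subunit of the same channel, was detected on 5 arrays and missed in replicate 5. Slc2a2 and Slc30a8 went the other way, with their highest level in that mouse. Mafa, a transcription factor of mature beta cells, was highest in replicate 2, at 7.59 beside 6.40 to 6.65 in the other 5.

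The secretory granule genes had some wide members with the same mouse at the low end. Their median relative SD was 1.44, beside 1.01 for all genes, with replicate 5 included. Of 38 listed genes, 35 were detected on all 6 and 13 of these spanned 2-fold, 37.1% beside 29.4% of all genes. Without replicate 5 it was 3 genes, 8.57% beside 13.9%. Cpe, the carboxypeptidase that trims prohormones, had 14.22, 14.66 and 14.93, and Scg2, a granin, had 14.29, 14.55 and 14.87. Pcsk2, a prohormone convertase, lay between 13.77 and 14.33. The widest members fell short in replicate 5: Vamp2, the vesicle SNARE, was at 8.97 beside a median of 10.72, and Pcsk1n, a convertase inhibitor, at 9.52 beside 11.09. A list score, the mean over the members after each is centred on its own mean over the 6 mice, was -0.36 in replicate 5 and between -0.12 and 0.23 in the others. After 75th percentile scaling it was -0.21 in replicate 5 and -0.25 in replicate 6, so the lowest mouse changed. The beta cell identity score was -0.29 in replicate 5, and that mouse kept the lowest score, -0.21, under the other scaling.

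Endoplasmic reticulum (ER) genes, which fold and export proinsulin, had another extreme mouse. Their median relative SD was 1.41, beside 1.01 for all genes, with replicate 5 included. Of 42 listed, 38 were detected on all 6 and 13 spanned 2-fold, 34.2% beside 29.4% of all genes (8 without replicate 5, 21.1% beside 13.9%). The score was highest in replicate 3, at 0.24, and at 0.30 after 75th percentile scaling, and 16 of the 38 genes were highest in that mouse, as were 19.3% of all genes. Sdf2l1, an ER chaperone cofactor, was at 12.09 in replicate 3 beside a median of 10.45, and the disulfide isomerase gene P4hb was at 14.47 beside 14.05. Hspa5, which encodes the chaperone BiP, was not highest there. It had 7.73, 8.36 and 8.66, with replicates 4 and 6 low. Xbp1, a transcription factor of the unfolded protein response, was among the steadiest, between 13.45 and 13.58, but its SD was 0.25 in place of 0.05 after 75th percentile scaling. Syvn1, an ER ubiquitin ligase, was lowest in replicate 5, at 10.85 beside a median of 12.19.

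Acinar genes were as bright as the hormones and placed replicates 1 and 5 at opposite ends. Of 43 listed, 41 were detected on all 6 at a median level of 14.13. Their score was -0.77 in replicate 1, 0.58 in replicate 5 and between -0.12 and 0.27 in the others, and 28 of the 41 were lowest in replicate 1 and 19 highest in replicate 5, beside 9.26% and 29.7% of all genes. The same mice were the lowest and the highest after 75th percentile scaling, at -0.99 and 1.03. A 2-fold range was found for 22 of 41, 53.7% beside 29.4% of all genes. It was again 22 without replicate 5, beside 13.9% of all genes. After 75th percentile scaling it was 40 of 41, beside 31.8% of all genes.

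Bright acinar genes varied little after quantile normalization. The defining enzymes Cela3b (14.76, 14.98 and 15.12), Cpa1 (14.13, 14.47 and 14.61), Ctrb1 (14.18, 14.88 and 14.97), Pnlip (14.34, 14.62 and 14.73) and Cel (14.68, 14.95 and 15.06) each stayed within 2-fold. That did not hold after 75th percentile scaling, in which Cela3b ran from 14.31 to 15.52 and Cel from 14.25 to 15.51. Members of lower level followed the score more openly. Erp27, an ER protein of acinar cells, had 9.51, 11.34 and 12.80, Ctrc, a chymotrypsin, had 8.05, 10.08 and 11.51, and Prss3, a trypsin, had 10.69, 12.13 and 13.45. All 3 were lowest in replicate 1 and highest in replicate 5, with replicate 2 next. Ptf1a, the transcription factor of acinar cells, was at 6.89 in replicate 1, 9.61 in replicate 2 and 10.05 in replicate 5. Whether this exocrine RNA bears on the level of any islet gene was not tested.

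Duct cell genes were lower and less complete. Of 19 listed, 11 were detected on all 6 and 5 on none, among them the chloride channel gene Cftr. Krt19, a duct keratin, was detected on 5 arrays and reached 7.63 in replicate 5, beside 5.08 to 5.81 in the other mice. Sox9, a duct transcription factor, lay between 7.72 and 8.74, highest in replicate 2. Muc1, an epithelial mucin, had 7.21, 8.15 and 9.44 and was highest in replicate 5.

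The spread of endothelial genes was near that of all genes, and their score was lowest in replicate 5. All 28 listed genes were detected on at least some arrays, 23 of them on all 6. Of these, 6 spanned 2-fold, 26.1% beside 29.4% of all genes, and 2 did so without replicate 5, 8.70% beside 13.9%. The median SD was 0.27, beside 0.28 for all genes. The cell adhesion genes Pecam1 and Cdh5 lay between 7.28 and 7.66 and between 7.37 and 7.62. Plvap, a protein of fenestrated capillaries, was at 10.57 in replicate 5 and between 11.31 and 11.73 in the others, and Egfl7, a secreted vascular factor, was at 8.09 there beside a median of 9.44. The score of replicate 5 was -0.42, against -0.03 to 0.18 for the other mice. Vwf, the clotting factor stored in endothelium, was highest in replicate 1, at 8.45.

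Stellate cell and fibroblast genes were also lowest in replicate 5 and were highest in replicate 6. Of 20 genes detected on all 6, 17 spanned 2-fold, 85% beside 29.4% of all genes, and 10 did so without replicate 5. The score was -0.75 in replicate 5, -0.34 in replicate 3 and 0.59 in replicate 6. Dcn and Lum, which encode matrix proteoglycans, had 10.59, 11.43 and 12.93 and 6.62, 7.57 and 8.98, and Pdgfra, a growth factor receptor, had 5.69, 7.04 and 8.05. All 3 were highest in replicate 6. The collagen genes Col1a1 and Col3a1 and the pericyte receptor gene Pdgfrb each missed detection on at least 1 array, and each did so in replicate 5. Acta2, a smooth muscle actin, was highest in replicate 4, at 11.00.

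Lymphocyte genes differed widely between mice. Only 7 of 32 genes were detected on all 6 arrays, 22 were detected on some and 3 on none, so the 7 are the ones bright enough in every mouse. All 7 spanned 2-fold, beside 29.4% of all genes, and all 7 still did without replicate 5, beside 13.9%. Igk-C, the kappa light chain constant region, was at 9.75 in replicate 4, 12.44 to 14.16 in replicates 1, 2, 3 and 5, and 15.12 in replicate 6. Igh-6, the mu heavy chain, had 8.48, 11.51 and 14.27 with the same lowest and highest mouse, and Cd79b, a subunit of the B cell receptor, had 6.49, 8.59 and 11.05. Replicates 4 and 6 marked the ends over the list, with scores of -2.0 and 2.17.

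T cell genes had a second high mouse. Tcrb-V13, a T cell receptor segment, was at 11.11 in replicate 2 and 11.00 in replicate 6 and between 6.62 and 7.95 in the other 4 mice. Ccl5, a chemokine of activated T cells, was at 9.98 and 8.68 in these 2 mice and between 5.88 and 6.77 in the rest. Cd3d, Cd3g and Cd3e, which encode the CD3 chains, were likewise highest in replicates 2 and 6, but each missed detection on 2 or more arrays. The B cell gene Ms4a1 was detected in replicate 6 alone.

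Macrophage and dendritic cell genes followed the same 2 mice. Of 33 listed, 24 were detected on all 6 and 22 of them spanned 2-fold, 91.7% beside 29.4% of all genes. Without replicate 5 it was also 22, beside 13.9% of all genes. The score was 0.78 in replicate 2, 1.12 in replicate 6 and between -0.57 and -0.27 in the other 4. The lysozyme genes Lyz1 and Lyz2 had 11.29, 11.85 and 14.51 and 8.37, 9.33 and 12.53. Cd74, the invariant chain of MHC class II, had 9.99, 11.52 and 12.82. The defining genes were lower and varied less: Csf1r, the receptor that macrophages need, lay between 6.33 and 7.62, Cd68 between 5.39 and 7.51 and C1qa, a complement component, between 8.55 and 9.49. Csf1r was highest in replicates 2 and 6, and Cd68 in the same mice, whereas C1qa was highest in replicates 2 and 5.

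Cytokine-responsive genes were high in replicate 6 as well. Of 8 genes of that list detected on all 6 arrays, 7 were highest in replicate 6, as were 12.6% of all genes. The score of replicate 6 was 1.10. Cxcl1, a neutrophil chemokine, was at 9.32 there and between 5.71 and 6.98 in the others. Vcam1, a leukocyte adhesion molecule, was at 9.24 and between 6.09 and 7.42 in the others. Interferon response genes were highest in replicates 6 and 2, with scores of 0.34 and 0.30, and lowest in replicate 3, at -0.43. In all, 13 of the 21 interferon genes detected on all 6 spanned 2-fold, 61.9% beside 29.4% of all genes. Without replicate 5 it was 10, 47.6% beside 13.9%.

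Blood genes and gut genes singled out replicate 5 from above. All 5 erythroid genes detected on all 6 arrays were highest in replicate 5 and lowest in replicate 2, beside 29.7% and 17.7% of all genes. Hbb-bs, a beta-globin, had 8.38, 10.45 and 13.43, Hba-a1, an alpha-globin, had 10.92, 12.64 and 14.10, and Alas2, the haem synthesis enzyme of red cell precursors, had 5.58, 6.64 and 9.88. The scores were 2.31 in replicate 5 and -1.66 in replicate 2. All 5 spanned 2-fold, beside 29.4% of all genes, and all 5 still did without replicate 5, beside 13.9%.

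**Figure D4:**
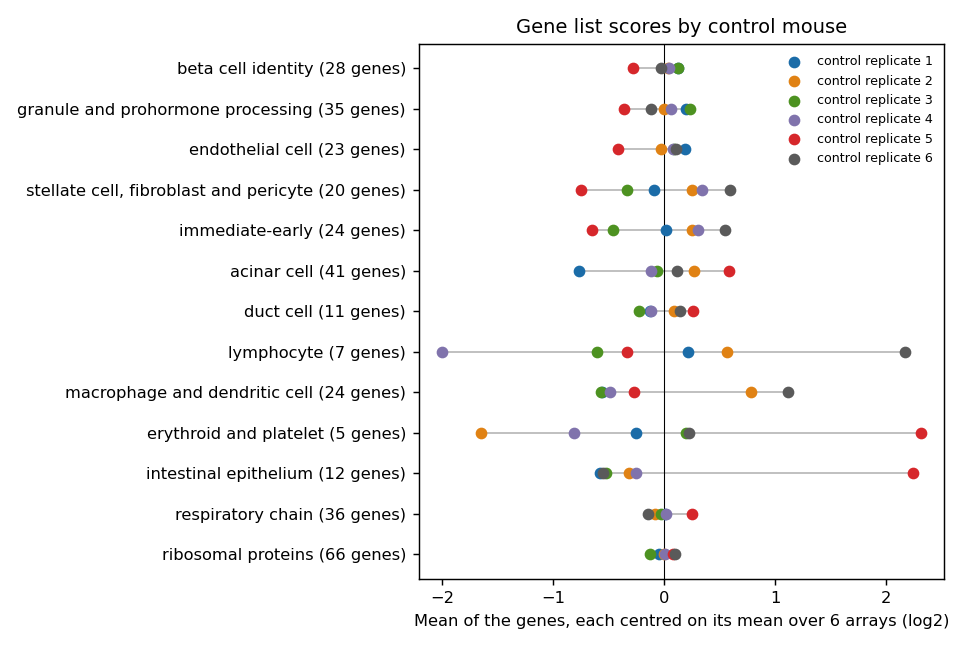
Score of 13 gene lists (y axis, with the number of genes detected on all 6 arrays) in each control mouse (coloured points), as the mean of the members after each was centred on its mean over the 6 mice (x axis, log2). Replicate 5 is the lowest for beta cell, granule (replicate 6 after 75th percentile scaling), endothelial, stellate and immediate-early genes and the highest for acinar, duct, erythroid, intestinal and respiratory chain genes, and replicates 4 and 6 mark the ends for lymphocyte genes.

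Intestinal genes were present in replicate 5 at levels found in no other control. Of 40 listed, 12 were detected on all 6 arrays, 21 on some and 7 on none. Of the 12, 11 were highest in replicate 5, as were 29.7% of all genes. A further 10 were detected in replicate 5 alone, as were 522 of all 45281 probes. That mouse scored 2.24 over the 12, against -0.58 to -0.26 in the others. Of the 12, 10 spanned 2-fold, and 3 did so without replicate 5. This list was compiled after the values had been seen, so its counts and score are a description. Sis, the sucrase of the intestinal brush border, was at 12.47 in replicate 5, 6.75 in replicate 4 and 4.66 to 5.13 in the other 4. Apoa1, the main apolipoprotein of HDL, was at 12.26, with 7.47 in replicate 4 and 4.73 to 4.88 elsewhere. Gsta1, a glutathione transferase, was at 11.59, Guca2b, the gut hormone uroguanylin, at 11.48, and Tff3, a goblet cell peptide, at 10.74. Each of these was next highest in replicate 4, at 6.12, 6.14 and 6.11.

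The gut signal covered several cell types but not all genes of the tissue. Absorptive cell genes (Apoc3 at 10.19, Alpi at 9.18 and Lct, lactase, at 8.63), the goblet cell mucin Muc2 (9.38) and the Paneth cell defensin Defa6 (8.15) were each detected in replicate 5 alone, where no other mouse exceeded 5.01. Ccl25, a chemokine that draws lymphocytes to the gut, was at 11.18 beside 6.46 to 7.28 in the others, and Lgals4, an epithelial galectin, at 11.53 beside 7.48 to 8.48. Yet 7 listed genes were detected on no array, among them Fabp2, Cdx1, Cdh17 and Gpa33, each a standard intestinal gene. Vil1 and Anpep, brush border genes that other epithelia also use, were high in all mice and stayed within 2-fold. The intestinal, acinar and erythroid scores were thus at their highest in the mouse with the lowest beta cell, endothelial and stellate scores, and the part of these RNAs in the lower scores was not tested.

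Genes that 1 mouse had or lacked were searched among all 45281 probes, counting those detected on 1 array alone and at least 4-fold above each other mouse. There were 70 such probes in replicate 5, 18 in replicate 4, 18 in replicate 6, and 1 each in replicates 1, 2 and 3. The genes described from here to Erdr1 were picked after their values had been seen.

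Replicate 4, labelled male like the rest, had genes of the ovary. Prss35, a protease of ovarian follicles, was at 9.73 in replicate 4 and between 4.55 and 4.65 in the other 5. Cyp11a1, which makes pregnenolone from cholesterol, was at 8.71 beside 4.49 to 5.12, and Amhr2, the receptor of anti-Mullerian hormone, was at 7.71 beside 4.68 to 5.00. A second Cyp11a1 probe was at 6.69 in replicate 4, and the further probes of that gene were detected on no array. Oocyte genes were there too: Gdf9, an oocyte growth factor, was at 7.41 beside 4.86 to 6.01, Nlrp5 at 7.10, Nlrp14 at 7.09 and Ooep at 7.16, the last 3 being detected in that mouse alone. Of 28 ovary genes listed after these values were seen, 12 were detected in replicate 4 alone, 6 on no array and 1 on all 6. Of all 45281 probes, 594 were detected in replicate 4 alone. Inha, an inhibin subunit that islets also express, was at 9.08 in replicate 4 and between 6.30 and 7.97 in the others.

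Not all ovary genes were present, and the male genes were. Star, Cyp19a1, Hsd3b1, Amh, Zp1 and Zp2 were detected on no array. Of 4 probes for Xist, the RNA that silences 1 X chromosome in female cells, 2 were at 6.98 and 6.88 in replicate 4 and between 4.50 and 4.76 in the others. The other two did not show it: one was at 5.07 in replicate 4 and highest in replicate 2, at 5.36, and one was detected on no array. The Y-linked genes Ddx3y, Eif2s3y and Kdm5d were detected on all 6 arrays, and in replicate 4 they were at 11.09, 9.42 and 6.76, within or above the range of the other mice.

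A few airway genes were high in replicate 3. Scgb1a1, the secretoglobin of club cells, was at 11.36 in replicate 3 and between 4.50 and 4.72 in the other 5. Scgb3a2, another secretoglobin, was at 8.21 beside 4.48 to 5.36, and Cyp2f2, a club cell cytochrome, was at 6.48 beside 4.57 to 4.92. A further Scgb3a2 probe was detected on no array. The alveolar surfactant genes Sftpa1, Sftpb and Sftpc were detected on no array. Of 20 airway and lung genes listed after the values were seen, 11 were detected on any array. Among these, 5 were highest in replicate 3 and 3 in replicate 5, beside 19.3% and 29.7% of all genes. Of the 5, 2 were detected in replicate 3 alone, as were 473 of all 45281 probes. Over the 6 detected on all arrays the score was 0.01 in replicate 3 and highest in replicate 1, at 0.18, so the list as a whole did not single out replicate 3. In replicate 6 the 18 probes included immunoglobulin segments, the macrophage genes Cd209b (7.78) and Timd4 (7.25) and the intrinsic factor gene Gif (8.01).

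Some probes that the other mice had were missed in replicate 5, the array with the lowest median intensity and the fewest detected probes. Erdr1, erythroid differentiation regulator 1 by name, was at 4.81 and undetected in replicate 5, against 8.22 to 10.39 in the others. In all, 17 probes were missing from replicate 5 by 4-fold or more, and besides Erdr1 they included those of Wiz, Arhgef1, Cic, Nid1 and Nid2.

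**Figure D5:**
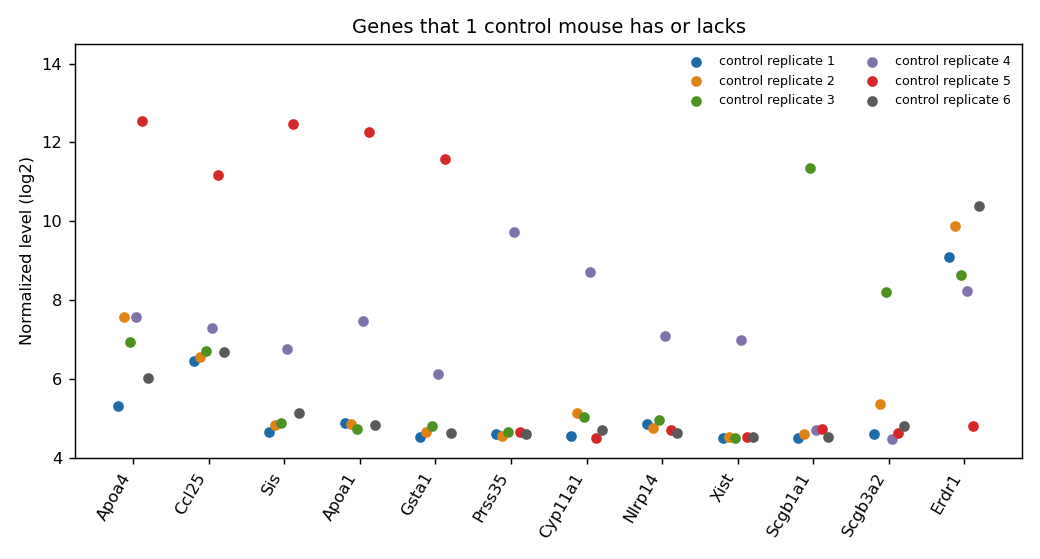
Normalized levels (y axis, log2) of 12 genes (x axis) in each control mouse (coloured points), with 1 probe a gene. Gut genes are high in replicate 5, ovary genes and Xist (1 of its 4 probes is drawn) in replicate 4 and secretoglobins in replicate 3, whereas Erdr1 is low in replicate 5.

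Immediate-early genes, which cells switch on within minutes of a stimulus, varied more than most genes. They were detected on all 6 arrays for 24 of 36 entries. A 2-fold range was found for 17 of the 24, 70.8% beside 29.4% of all genes, and for 11 without replicate 5, 45.8% beside 13.9%. Fos had 12.12, 13.57 and 13.88, Egr1 had 12.09, 13.65 and 14.05 and Dusp1, a MAP kinase phosphatase, had 11.73, 13.26 and 13.67. All 3 were lowest in replicate 5, next lowest in replicate 3, and highest in replicate 4 or 6. Rgs2, a brake on G protein signalling, was lowest in replicate 3 instead, at 6.05 beside a median of 8.51.

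The share of heat shock genes with a 2-fold range was near that of all genes, and their median relative SD was 1.26, beside 1.01. Their score was lowest in replicate 3, at -0.36. Hspa1a, the inducible HSP70, had 7.98, 9.75 and 11.13, with replicate 3 lowest and replicate 2 highest, while the constitutive Hspa8 lay between 14.13 and 14.57. Bag3, a cochaperone, was at 8.26 in replicate 5 beside a median of 10.06. Of the 17 heat shock genes detected on all 6, 6 spanned 2-fold, 35.3% beside 29.4% of all genes, and 3 without replicate 5, 17.6% beside 13.9%. Clock genes were detected on all 6 for 15 of 21 entries. Of these, 9 spanned 2-fold, 60.0% beside 29.4% of all genes (7 without replicate 5, 46.7% beside 13.9%). Per1, a clock repressor that also responds to stimuli, had 7.34, 9.15 and 9.56 and was lowest in replicate 5, and Dbp, a clock output factor, had 10.25, 11.13 and 11.29 and was lowest in replicate 3.

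Proliferation genes were low in level. Of 32 cell cycle genes, 11 were detected on all 6, and the score of replicate 3 was 0.41, against -0.21 to -0.02 in the other mice. Cdk1, the mitotic kinase, was at 7.23 there and between 5.88 and 6.62 elsewhere, and Mcm2, part of the replicative helicase, was at 7.93 and between 6.33 and 7.16. Mki67 and Top2a missed detection in replicate 5. Aldh1a3, a retinaldehyde dehydrogenase seen in failing beta cells, was also highest in replicate 3, at 9.03 beside a median of 7.42, and lowest in replicate 2, at 6.23.

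A further list held genes that beta cells normally keep low. Of 25 listed, 18 were detected on all 6 and 16 of these spanned 2-fold, 88.9% beside 29.4% of all genes. Without replicate 5 it was 15, 83.3% beside 13.9%. The score was 0.61 in replicate 6 and -0.47 in replicate 3. Ldha, lactate dehydrogenase A, had 7.44, 7.93 and 10.13, and the high value was that of replicate 5. The lactate transporter gene Slc16a1 and the hexokinase gene Hk1 were detected on no array.

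Respiratory chain and ribosomal protein genes varied little after quantile normalization, but both lists were bright and bright probes vary less. The median relative SD was 0.97 for respiratory chain genes, near the 1.01 of all genes. It was 0.73 for ribosomal protein genes, so only these were steadier than is usual for their level. Respiratory chain genes were detected on all 6 for 36 of 40 entries, with a median SD of 0.18, and 4 spanned 2-fold, 11.1% beside 29.4% of all genes. It was 1 without replicate 5, 2.78% beside 13.9%, and 7 after 75th percentile scaling, 19.4% beside 31.8% of all genes. The median SD under that scaling was 0.29, beside 0.30 for all genes. The respiratory chain score was 0.25 in replicate 5, where 23 of the 36 and 29.7% of all genes were highest. Ribosomal protein genes, detected on all 6 for 66 of 68 entries, had a median SD of 0.12 and only 3 spanned 2-fold, 4.55%. The steadiness of the ribosomal genes rested on the normalization, as it did for the hormones. After 75th percentile scaling the median SD of the ribosomal list was 0.35, beside 0.30 for all genes. Under that scaling 30 of 66 genes spanned 2-fold, 45.5% beside 31.8% of all genes. Rpl19 went to an SD of 0.37 in place of 0.07, and Hprt, a purine salvage enzyme often used as a control, to 0.15 in place of 0.04. Becn1 remained steady with an SD of 0.10 in place of 0.02. B2m, the light chain of MHC class I and another common control gene, had 11.88, 12.59 and 13.38. Of the 18 housekeeping genes detected on all 6, 4 spanned 2-fold, 22.2% beside 29.4% of all genes, and their median relative SD was 1.04.

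Fat-handling genes were of interest because all mice ate the high fat diet, and no mouse on another diet was measured. Of 22 lipid synthesis genes detected on all 6, 7 spanned 2-fold, 31.8% beside 29.4% of all genes. Scd1, the stearoyl-CoA desaturase, had 6.80, 7.59 and 9.35 and was highest in replicate 6, and Dgat2, which forms triglyceride, had 5.49, 6.25 and 8.38 and was highest in replicate 5. Me1, malic enzyme, was at 8.37 in replicate 4 and between 6.33 and 7.03 in the others. Of 18 fatty acid oxidation genes and PPAR targets, 10 spanned 2-fold, 55.6% beside 29.4% of all genes. Without replicate 5 it was 8, 44.4% beside 13.9%. Cpt2, a mitochondrial carnitine transferase, lay between 10.96 and 11.19, and Pdk4, which restrains pyruvate oxidation, had 6.83, 8.15 and 8.39 with replicate 3 lowest.

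Second probes of the same gene were used to see how far a wide spread belonged to the gene. Among genes with a 2-fold range, 647 had a second kept probe, and it named the same highest mouse for 57.5% of them, with a median correlation of 0.836 over the 6 mice. Among the other genes 2465 had one, and the same mouse was highest for 42.8%, with a median correlation of 0.598. Both probes of a pair were read on the same arrays, so these values describe agreement between probes and not between preparations.

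The titles carry a letter, A for replicates 1 to 3 and B for replicates 4 to 6, and what it stands for is not stated. Letter A minus letter B was tested over all 14229 probes with limma. No probe (0 of 14229, 0%) passed an adjusted p-value under 0.05, and the smallest adjusted p was 0.497 by limma with Benjamini-Hochberg adjustment. At an unadjusted p under 0.05 there were 1427 probes, 10.0% of those tested. With 3 mice a letter, this does not show that the letters are alike. On simulated data the same test recovered 0% of 2-fold changes.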

How the data were processed

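Islet RNA of 6 control and 6 SRI-tg10 mice was measured on Illumina bead arrays. Per the file headers, the authors' deposited table gives for each probe and array a mean bead intensity on the linear scale and a detection p-value, in steps of 1 over 936. The submitters' processing notes name GenomeStudio, without a version. The values show no background subtraction and no normalization between arrays. The authors' deposited value table is on a log2 scale with column medians of 5.70 to 5.89. Its columns did not match their labels and it was not used further. Its further scaling and centring stay unknown.

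Intensities of all 12 arrays were corrected and quantile-normalized with neqc in limma 3.58.1 (R 4.3.3, offset 16) and converted to log2, and the control arrays were then used alone. Further steps ran in Python 3.11.15 with pandas 2.3.3, numpy 2.4.6 and matplotlib 3.10.9. Probes with a detection p under 0.05 on all 6 control arrays were kept. Updated symbols, available for 12563 kept probes, came from the authors' deposited comparison table, of which no values were used, and other symbols from the intensity table. Synonyms and promoters came from RefSeq tables of assembly GRCm38.p6. The relative SD divides a probe's SD by the median SD of the probes nearest to it in mean level. Title letters were compared with lmFit and eBayes and Benjamini-Hochberg adjustment. The procedure was checked on simulated data with 200 changed probes of 14229. It recovered 0% of them at 1.5-fold, 0% at 2-fold, 76% at 3-fold and 85% at 4-fold. Unchanged probes called were 0, 0, 5 and 14 in the same order. The number of arrays limits the precision.

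Genes were named by rule: the hormones and Sri, the 20 highest in mean, the 20 largest in SD, the 15 largest in relative SD, the 10 steadiest between the 50th and 95th percentile of level, and in each of 32 lists the 3 highest in mean, the 3 largest and the 2 smallest in SD, and up to 5 detected on only some arrays. Not every gene so named is printed, some defining markers and familiar members of the lists are printed besides, and 3 lists (intestine, ovary and airway, compiled after the values were seen) and the genes that 1 mouse had or lacked were added. All members and lists were chosen with earlier results of these data known. Of 979 list entries, 976 were on the array. Some genes that the rule or the lists name are not reported here.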

Additional observations from a re-analysis of the deposited data

Results flagged for a closer look

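Across 168 values screened (named genes, list scores and array measures), 1 mouse lay apart from the other 5 by Dixon's criterion in 27, or 16.1%, beside 10.3% of all kept probes. Chance gives about 1 in 20, but many of these values were chosen for their spread or after the data were seen. The mouse was replicate 5 in 21 of them, and its mean correlation with the other controls, 0.940, was 1 of these.

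Replicate 5 was low for Pyy (14.22), Mlxipl (10.08), Abcc8 (10.14), Gipr (6.69), Vamp2 (8.97), Syvn1 (10.85), the ER calcium pump gene Atp2a2 (12.30), Plvap (10.57), Igfbp7 (13.05) and Bag3 (8.26), and for the endothelial score (-0.42). It was high for Alas2 (9.88), Apoa4 (12.54), Ccl25 (11.18), Lgals4 (11.53), the gluconeogenic enzyme gene Fbp2 (10.42), Cyp3a13 (10.05), the antibody transporter gene Pigr (9.56), Ldha (10.13) and the intestinal score (2.24). Replicate 1 was low for Ctrl (14.58) and Lias (11.08), replicate 6 was high for Cxcl1 (9.32) and replicate 4 for Me1 (8.37). Replicate 3 had the highest cell cycle score (0.41) and the lowest lipid synthesis score (-0.19).

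Among probes outside the 14229 kept ones, 18 were detected in replicate 4 alone, 70 in replicate 5 alone and 18 in replicate 6 alone, each at least 4-fold above every other control. Those of replicate 4 include Prss35 at 9.73 and Xist at 6.98, by 1 of its 4 probes. Scgb1a1, at 11.36, was the single such probe of replicate 3. Sis, at 12.47 in replicate 5, was also detected in replicate 4. The source of none of these signals was tested.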

How the results depend on the processing

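The count of probes detected on all 6 arrays was 24063 where 1 array sufficed and ran from 14263 to 15711 with 1 mouse left out. The 4125 probes with a 2-fold range became 1259 (8.85%) without background correction, 6926 (36.9%) with detection on at least 3 arrays and 8978 (19.8%) with no filter. Leaving out 1 mouse gave 2266 (without replicate 5) to 3938. The median SD was 0.182 without background correction and 0.234 to 0.296 with 1 mouse left out. Scaling to the 75th percentile (4437 probes), normalizing the controls alone (4173) and leaving out Y-linked, immunoglobulin, T cell receptor and haemoglobin probes (4104, added after the data were seen) moved that count by under 1.5 times. The median SD of the 252 genes named by the rule, 0.425, ran from 0.302 to 0.432 with 1 mouse left out, and was 0.298 without background correction and 0.455 under 75th percentile scaling. The number of listed genes with a 2-fold range moved by over 1.5 times in 15 of 35 lists without replicate 5. Of 1179 mean levels of 131 printed genes under other settings, 1162 moved by less than 1 SD. Their SD ranged from 0.46 to 7.50 times the reported one under 75th percentile scaling. No probe differed between title letters at an adjusted p under 0.05 by limma in any of the 12 alternatives, where 579 (without replicate 3) to 3167 (no filter) had an unadjusted p under 0.05. With the number in the title as a replicate block it was 0 called and 1418 unadjusted. Deviations of same-numbered mice correlated at 0.160, 0.074 and -0.201. These few values cannot tell whether the numbers pair the mice.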
